A study of Mus musculus with 3 samples.

Results

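Transcript levels of 9 genes of the bone morphogenetic protein (BMP) pathway were read in wounded primary mouse fibroblasts, namely the ligands Bmp2 and Bmp4, the secreted antagonist Grem1, the receptors Bmpr1a and Bmpr2, and Id1, Id2, Id3 and Id4. These genes were chosen by name, as 9 of the 43472 rows of the table of normalized counts, and each of the 9 had a row. Fibroblasts from the tail tip of C57BL/6 mice were scratched in culture and then received the soluble micrograft (MG), the fluid left after mouse skin was minced, filtered and spun free of cells, together with PD0325901 for 5 h. PD0325901 inhibits the kinase MEK, which activates ERK. The 3 libraries, replicates 1, 2 and 3, thus all carried wound, MG and inhibitor. The study calls the fibroblasts adult, and an age in weeks is not given in the sources used here. Wounded cells without MG or without PD0325901 were not analysed here. All differences below therefore lie between libraries of 1 condition, and none was tested between conditions.

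BMP ligands are secreted dimers that bind type I receptors such as Bmpr1a and type II receptors such as Bmpr2. The receptors phosphorylate Smad1, Smad5 and Smad9, which enter the nucleus with Smad4, and the Id genes are among their best known direct targets. Gremlin-1, the product of Grem1, holds BMP2 and BMP4 outside the cell and keeps them from their receptors. Id proteins lack a DNA-binding region and bind E proteins such as Tcf3, Tcf4 and Tcf12, which keeps those factors off DNA. In skin, fibroblasts are a source of both ligands and antagonists.

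The libraries held 17244505 to 27037783 reads on genes, recovered from the normalized counts, and a count of 0 allows up to 3 reads, or 2.11 to 3.56 normalized counts. Such limits, and the intervals below, cover counting error only, since reads carried no molecular identifiers. Every pair of libraries differed by far more than counting noise, with a dispersion index of at least 57.6 where noise alone gives about 1. Replicate 2 lay farthest from the others, with Pearson correlations of log2 values across 12204 genes of 0.939 and 0.948 against 0.974 for replicates 1 and 3. Genes are not independent replicates. All 8 fibroblast markers passed 10 normalized counts in each library and summed to 261878, 292761 and 408769 in replicates 1, 2 and 3. Single markers did not share that order, with 4 highest in replicate 3, 2 in replicate 2 and 2 in replicate 1. Highest over lowest library was over 2-fold for 3 of the 8 (37.5%, against 21.6% of all genes). Thy1 had 2031, 15760 and 1652, Lum had 5073, 289 and 1164, and Dcn had 3661, 1723 and 3659. Krt15, Krt1, Tie1, Emcn and Myod1, of keratinocytes, endothelial cells and skeletal muscle, were at 0 in all libraries. Other markers of the same cell types were not, and Krt10, Egfl7, Des and Acta1 passed 10 normalized counts in each library. Egfl7 had 69.5, 53.6 and 49.8 and Acta1 had 2429, 7286 and 5586 in replicates 1, 2 and 3. Tek had 185 in replicate 2. The presence of such cells was not tested. The libraries are bulk samples, in which fewer cells of a type and less RNA per cell cannot be told apart.

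The stretches upstream of the RefSeq start of Grem1, Bmp4, Id4 and Id2 are shown because these members stand near the ends of the level scale or highest in a single library. They come from the RefSeq promoter table for GRCm38.p6, in which 7 of the 9 genes matched and Bmp2 and Id1 did not. Each is written 5′ to 3′ on the strand of the gene and stops before the RefSeq start or the first base that the annotation places in an exon. The stretch of Id2 lies inside the gene as annotated (chr12:25093799-25097140, minus strand), so it is upstream of the RefSeq start only. Capitals mark GGCGCC, a GC-rich motif that Smad1 and Smad5 bind. The stretches are chr2:113758649-113758898 (minus strand) for Grem1, chr14:46390670-46390919 (minus) for Bmp4, chr13:48260866-48261115 (plus) for Id4 and chr12:25096254-25096342 (minus) for Id2.
Grem1: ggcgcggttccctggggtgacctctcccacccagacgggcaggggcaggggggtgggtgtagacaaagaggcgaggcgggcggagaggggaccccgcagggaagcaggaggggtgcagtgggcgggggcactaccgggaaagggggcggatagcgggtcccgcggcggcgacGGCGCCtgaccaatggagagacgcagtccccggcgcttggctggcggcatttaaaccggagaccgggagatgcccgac
Bmp4: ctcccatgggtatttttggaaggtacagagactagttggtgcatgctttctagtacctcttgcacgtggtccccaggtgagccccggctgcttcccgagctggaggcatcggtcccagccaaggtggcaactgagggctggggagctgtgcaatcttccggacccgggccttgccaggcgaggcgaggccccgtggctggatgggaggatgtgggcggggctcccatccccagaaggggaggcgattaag
Id4: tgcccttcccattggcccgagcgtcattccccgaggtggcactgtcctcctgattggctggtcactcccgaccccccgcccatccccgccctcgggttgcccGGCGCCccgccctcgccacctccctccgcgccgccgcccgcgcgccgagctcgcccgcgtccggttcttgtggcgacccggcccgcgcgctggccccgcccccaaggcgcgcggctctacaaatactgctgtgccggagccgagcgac
Id2: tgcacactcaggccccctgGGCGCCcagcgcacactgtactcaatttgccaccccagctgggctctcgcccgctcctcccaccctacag

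In these stretches GGCGCC began 78 bases before the RefSeq start of Grem1, 148 before that of Id4 and 231 before that of Id2, and was not among the letters shown for Bmp4. In windows of 300 bases around the RefSeq start, 5 of the 7 genes held it, Bmpr1a and Bmpr2 being the others, against 11.9% of all 32851 windows. The windows of Bmpr1a, Bmpr2, Id2 and Id3 lie inside the genes as annotated, and those of Bmpr2 and Id3 begin within an annotated exon. The matches of Bmpr1a, Bmpr2 and Id2 are thus not upstream of the annotated gene. How many of all windows lie inside a gene was not counted. The 7 windows were 59.3 to 79.3% G or C, and the median of all windows was 52.7%. The Smad box CAGAC was in the windows of Grem1 and Id3, and in 49.6% of all windows. The AP-1 motif TGANTCA was in none of the 7 and in 7.81% of all windows. Motifs were searched on both strands and were picked with the sequences in view. A match is not a site of binding, which was not measured here.

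The transcript of the antagonist Grem1 was far more abundant than that of either ligand in every library. Grem1 (GRCm38 chr2:113746164-113758646, on the minus strand) reached 7515, 11250.5 and 11989 normalized counts in replicates 1, 2 and 3, on average 10251 ± 2399 (SD, n = 3). It was lowest in replicate 1, and replicates 2 and 3 lay close together. With libraries scaled to equal totals, replicate 2 rather than replicate 3 was the highest. To compare genes of different length, values were divided by the length of the exons in kb. On that scale Grem1 had 10.7, 18.8 and 4.20 times the summed level of Bmp2 and Bmp4 in replicates 1, 2 and 3. The ratio thus differed 4.47-fold between libraries, while the range of Grem1 alone was 1.60-fold.

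Both ligands were highest in replicate 3. Bmp4 (chr14:46383520-46390669, minus strand) had 343, 285 and 1466 normalized counts in replicates 1, 2 and 3, on average 698 ± 666 (SD, n = 3). Replicates 1 and 2 differed by 1.20-fold and replicate 3 lay 4.27-fold above the higher of them. Without replicate 3 the mean of Bmp4 was 314. Highest over lowest library was 5.15-fold (95% exact interval for the reads 4.60 to 5.78). Bmp2 (chr2:133552159-133562885, plus strand), a close relative of Bmp4, had 58.2, 63.4 and 129 normalized counts, on average 83.6 ± 39.6 (SD, n = 3). These values rested on 67, 90 and 109 reads. The 2.22-fold difference between its highest and lowest library had an interval of 1.62 to 3.06, so it could not be told from 2-fold at this depth. Per kb of exon, Bmp2 made up 9.69, 12.3 and 5.28% of the ligand pair in replicates 1, 2 and 3. Bmp4 was therefore the main one of the pair in each library, at 87.7% or more.

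**Figure D1:**
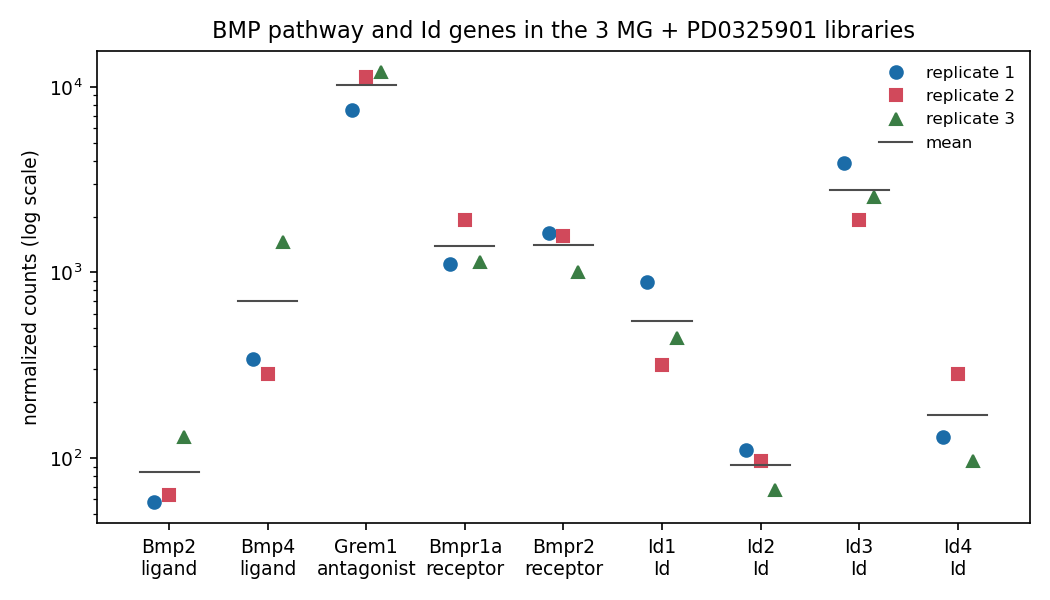
Normalized counts (log scale) of the 9 genes in the 3 MG + PD0325901 libraries, with 1 point per replicate and a line at the mean. Bmp2 and Bmp4 stand highest in replicate 3, Id1, Id2 and Id3 in replicate 1, and Id4 in replicate 2.

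The 6 leukocyte markers summed to 142, 76.8 and 670 normalized counts in replicates 1, 2 and 3, highest in replicate 3. Lyz2, a lysozyme gene of macrophages and neutrophils, made up most of it with 123, 62.7 and 601. Lyz2 was the 1 gene of the 6 that reached 10 in each library. Laptm5 had 1.74, 4.93 and 36.7, Tyrobp had 0, 2.11 and 15.4, and Cd52 had 0.868, 0.705 and 9.48, all highest in replicate 3. Cd74 had 14.8, 5.64 and 5.93, highest in replicate 1, and Ptprc had at most 1.74, on 1 or 2 reads. The part of such cells in the higher Bmp2 and Bmp4 values was not tested.

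The receptors had smaller ranges between libraries than Bmp4. Their ranges were also below the 2.22-fold of Bmp2, but the interval of that gene, 1.62 to 3.06, included the range of Bmpr1a. Bmpr1a (chr14:34410734-34503341, minus strand), a type I receptor, had 1113, 1929 and 1144 normalized counts in replicates 1, 2 and 3, on average 1395 ± 462 (SD, n = 3). Replicate 2 was the highest and replicates 1 and 3 differed by 1.03-fold, in an order that turned with libraries scaled to equal totals. Bmpr2 (chr1:59763400-59879014, plus strand), the type II receptor, had 1626, 1565 and 1011 normalized counts, on average 1400.5 ± 339 (SD, n = 3). Replicate 3 was the lowest for Bmpr2, and the other libraries lay close together. Highest over lowest library was 1.73-fold for Bmpr1a and 1.61-fold for Bmpr2. Per kb of exon Bmpr2 had 0.516, 0.287 and 0.312 times the level of Bmpr1a in replicates 1, 2 and 3.

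Id3 and Id1 were the abundant Id genes, and both were highest in replicate 1 and lowest in replicate 2. Id3 (chr4:136143497-136145755, plus strand) had 3899, 1914 and 2536 normalized counts in replicates 1, 2 and 3, on average 2783 ± 1015 (SD, n = 3). Id1 (chr2:152736251-152737410, plus strand) had 890.0, 318 and 441 normalized counts, on average 549.8 ± 301 (SD, n = 3). Replicate 1 stood 2.02-fold above the next library for Id1 and 1.54-fold for Id3. Highest over lowest library was 2.79-fold for Id1 (interval 2.50 to 3.13) and 2.04-fold for Id3 (interval 1.94 to 2.14), so Id3 lay at the 2-fold limit. With libraries scaled to equal totals its range fell below 2-fold.

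Id4 and Id2 were scarce and did not share that order. Id4 (chr13:48261228-48266026, plus strand) had 130.3, 284 and 96.0 normalized counts in replicates 1, 2 and 3, on average 170.1 ± 100.1 (SD, n = 3). It was the only Id gene highest in replicate 2, which stood 2.18-fold above the next library, and its mean without that replicate was 113. Id2 (chr12:25093799-25097140, minus strand) had 111, 96.5 and 67.6 normalized counts, on average 91.7 ± 22.2 (SD, n = 3). Its range of 1.65-fold had an interval of 1.20 to 2.29, since the lowest library held 57 reads. Highest over lowest library for Id4 was 2.96-fold (interval 2.32 to 3.8).

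Within a library, the 4 Id genes kept a similar make-up for the abundant pair only. Per kb of exon, Id3 was 72.0, 73.4 and 76.6% of the 4 together in replicates 1, 2 and 3, on average 74.0 ± 2.36% (SD, n = 3). Id1 was 25.4, 18.9 and 20.6%. The Id3 level was 2.84, 3.89 and 3.73 times that of Id1, a 1.37-fold range, although each of the genes alone ranged over 2-fold. Id4 was 1.12, 5.07 and 1.35%, and Id2 was 1.51, 2.72 and 1.5%, both largest in replicate 2. The level of Id2 itself was highest in replicate 1, and the sum of the 4 was lowest in replicate 2.

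The summed levels of ligands and Id genes did not follow the same order of libraries. The 4 Id genes summed to 3024, 1456 and 1849 normalized counts per kb in replicates 1, 2 and 3, highest in replicate 1. Bmp2 and Bmp4 summed to 169, 144 and 689 per kb, highest in replicate 3. The Id sum was 17.9, 10.1 and 2.69 times the ligand sum in replicates 1, 2 and 3. No correlation is given, since 3 libraries are too few.

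**Figure D2:**
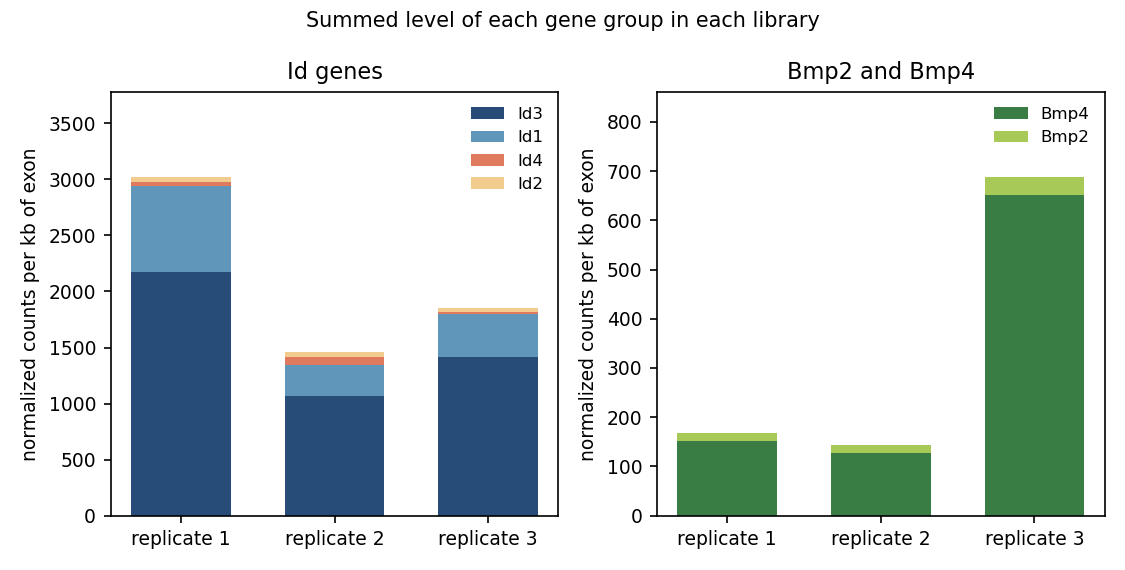
Summed normalized counts per kb of exon in each library, for the 4 Id genes (left) and for Bmp2 with Bmp4 (right), stacked by gene. The Id bars reach 3024, 1456 and 1849 in replicates 1, 2 and 3, and the ligand bars 169, 144 and 689.

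Markers of other tissues of the tail were read beside the Id genes. The 6 tendon and cartilage markers summed to 26383, 1673 and 15514 normalized counts in replicates 1, 2 and 3, lowest in replicate 2 like Id1 and Id3, and 5 of the 6 passed the minimum of 10 in every library. Of the cartilage genes, Col2a1 had 11538, 229 and 833, highest in replicate 1, and Acan had 4.34, 0 and 36.7, highest in replicate 3. Of the others, Scx had 2470, 168 and 1381, Comp had 2900, 387 and 3082, Fmod had 9346, 762 and 10075, and Tnmd had 124, 127 and 107. The 5 skeletal muscle markers summed to 2641, 8494 and 5664, highest in replicate 2 like Id4. Acta1 and Des made up nearly all of that sum, while Myod1 was at 0 throughout and Myog and Ckm had at most 0.87 and 1.19. The 5 keratinocyte markers summed to 81.6, 39.5 and 34.4, with 1 of them, Krt10, past the minimum. The endothelial markers summed to 90.3, 244 and 55.7, and without Tek, left out after its values were seen, to 83.4, 58.5 and 53.3. Their part in the Id values was not tested.

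After division by exonic length the order of the means was Grem1, Id3, Id1, Bmp4, Bmpr1a, Bmpr2, Id4, Id2 and Bmp2. Grem1 had 2471 ± 578 and Id3 had 1554 ± 567 normalized counts per kb (SD, n = 3). These neighbours overlapped, as Id3 stood above Grem1 in replicate 1. Id1 had 474 ± 259, and its values did not overlap those of Id3. Bmp4 with 310.5 ± 296 and Bmpr1a with 219.7 ± 72.8 followed, and neighbours among Id1, Bmp4 and Bmpr1a overlapped between libraries. Bmpr2 with 77.9 ± 18.8 lay below Bmpr1a in every library with no overlap, and overlapped Id4. Id4 with 44.2 ± 26.0, Id2 with 37.6 ± 9.10 and Bmp2 with 23.5 ± 11.1 stood at the low end and overlapped each other. Among the 11620 detected genes with a unique name in the annotation, Grem1 ranked 395 and Id3 630 by this level, while Bmp2 ranked 9567.

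**Figure D3:**
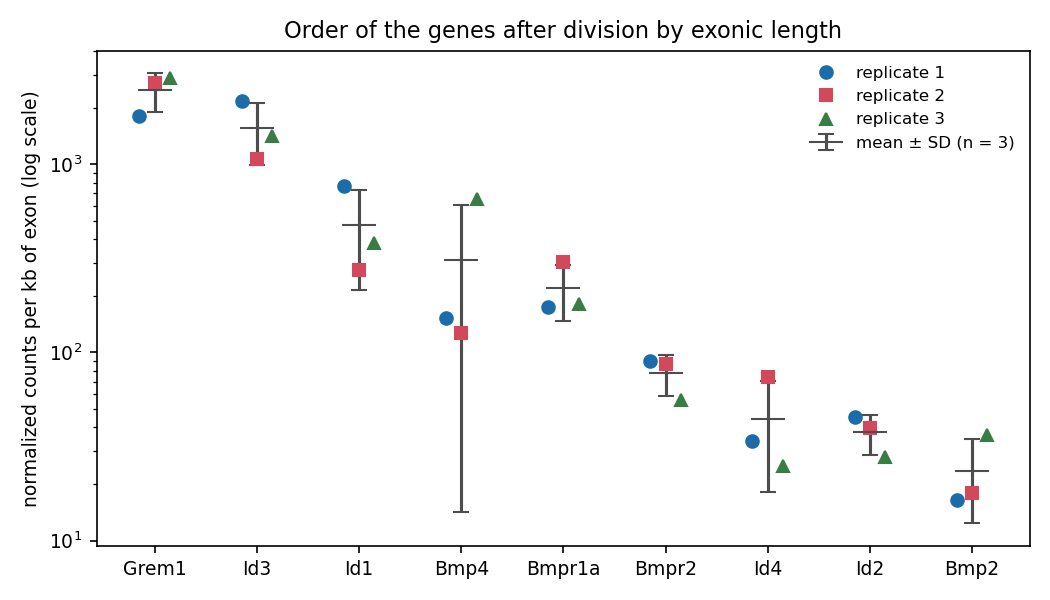
Normalized counts per kb of exon (log scale), with 1 point per replicate and the mean with its SD (n = 3), in order of the mean. Grem1 and Id3 are highest at 2471 and 1554, Bmp2 is lowest at 23.5, and only Id3 with Id1 and Bmpr1a with Bmpr2 are neighbours whose points do not overlap.

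The spread of these genes between libraries was set beside that of all genes. A gene was counted where its highest library was more than 2-fold above the lowest on the log2(normalized count + 1) scale, among genes that reached 10 normalized counts in each library. All 9 genes passed the minimum. Bmp2, Bmp4, Id1, Id3 and Id4 were over the limit, 5 of 9, against 21.6% of the 12204 genes that passed. The count was 3 without replicate 1 (Bmp2, Bmp4 and Id4), 3 without replicate 2 (Bmp2, Bmp4 and Id1) and 3 without replicate 3 (Id1, Id3 and Id4). No gene of the 5 stayed over the limit in all of these, which would need every pair of libraries over 2-fold apart. Ranges of 2.20 (Bmp2), 2.79 (Id1), 2.04 (Id3) and 2.94-fold (Id4) were too small to allow that. For these genes the outcome was thus fixed and says nothing about stability. The share of all genes over the limit was then 12.7% without replicate 1, 6.06% without replicate 2 and 15.1% without replicate 3. The median SD of log2 values was 0.52 for the 9 genes and 0.30 for all that passed. The biological coefficient of variation that edgeR estimated from the recovered reads ran from 25.2% for Bmpr2 to 56.1% for Bmp4, and was 36.1% in common over 13366 genes.

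Ranges were also set beside those of genes at a similar level. Of the 1212 genes with a mean within 1.5-fold of that of Bmp2, 39.5% had a range over 2-fold, so the range of Bmp2 was common at its level. At the level of Bmp4, 13.6% of 2780 genes had such a range and 1.33% had a larger one than Bmp4. A range larger than that of Id1 was seen in 6.39% of 2692 genes at its level, than that of Id3 in 10.4% of 1296 and than that of Id4 in 12.5% of 1670. For Id2 it was seen in 56.2% of 1259 genes. For Bmpr1a it was 19.9% of 2151, for Bmpr2 26.6% of 2147, for Grem1 28.6% of 301 and for Bmp2 32.4% of 1212. By this measure the range of Bmp2 stood out less at its level than those of the receptors.

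**Figure D4:**
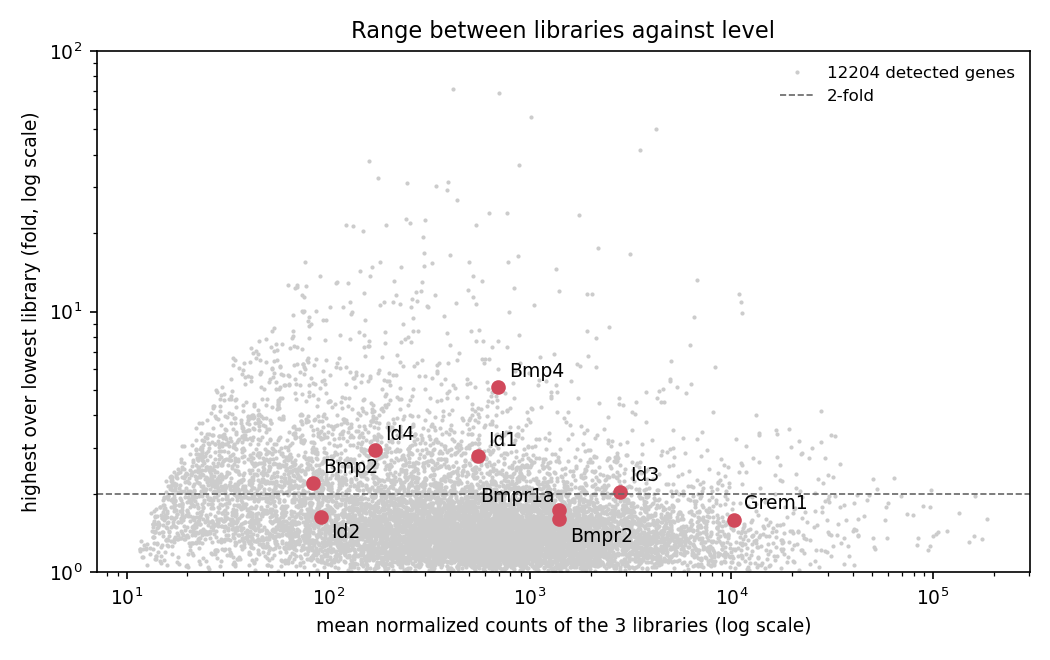
Highest over lowest library (fold, log scale) against the mean normalized counts (log scale) for the 12204 detected genes in grey and the 9 genes in red, with a dashed line at 2-fold. Bmp4 has the largest range of the 9, 5.14-fold, Bmp2, Id1 and Id4 lie above the line, Id3 lies on it, and Id2, Grem1, Bmpr1a and Bmpr2 lie below.

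A single library stood more than 2-fold from both others in 4 of the 9 genes, against 11.3% of all 12204. Replicate 3 stood above for Bmp2 and Bmp4, as it did for 0.729% of all genes. Replicate 1 stood above for Id1, as for 1.41% of all genes, and replicate 2 above for Id4, as for 4.22%. The gap to the next library was 4.27-fold for Bmp4, but 2.04-fold for Bmp2, 2.02-fold for Id1 and 2.18-fold for Id4, near the limit. Intervals were not computed for these gaps, and for Bmp2 they rest on 109 against 90 reads. Replicate 2, which lay farthest from the others over all genes, was thus the library apart in 1 of these 4. At a limit of 1.5-fold, 7 of the 9 genes had a library apart, against 31.4% of all genes. With libraries scaled to equal totals Bmp2 was no longer in this count.

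**Figure D5:**
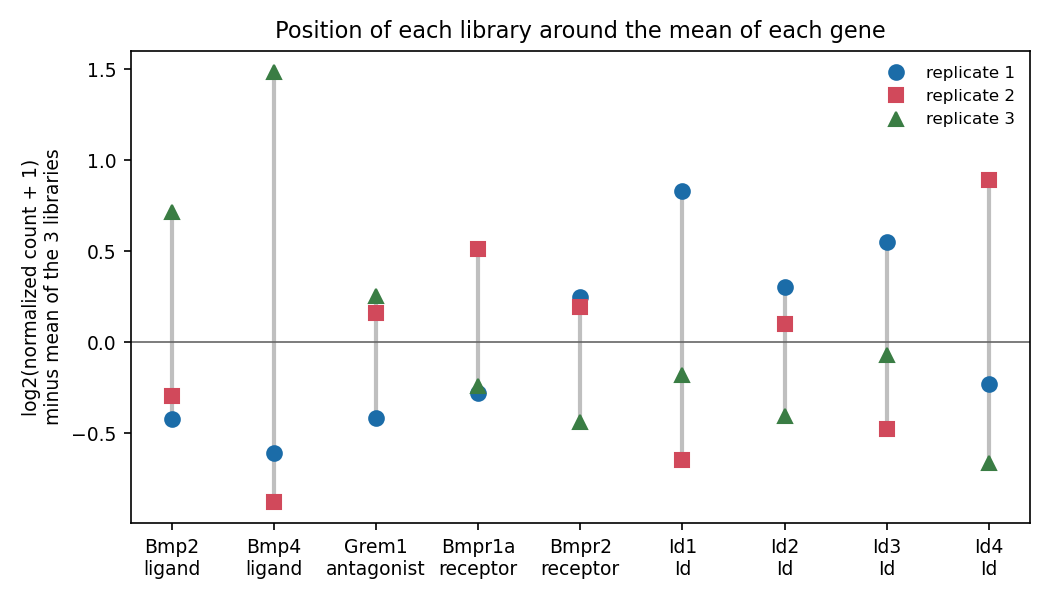
Log2(normalized count + 1) of each library minus the mean of the 3 libraries for that gene, with 1 point per replicate and a grey bar over the range. Replicate 3 lies 1.48 above the mean for Bmp4 and 0.72 above for Bmp2, and replicate 1 lies 0.83 above for Id1.

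The other genes of the pathway were read from lists of 58 genes, of which 42 passed the minimum in every library. Of these, 15 had a range over 2-fold (35.7%, against 21.6% of all genes). The count was 6 without replicate 1, 6 without replicate 2 and 9 without replicate 3, where 12.7, 6.06 and 15.1% of all genes had such a range. The median SD of log2 values was 0.34 over the 42. Intervals of some of the 15 ranges included 2-fold, such as Nog (1.39 to 3.00) and Crim1 (1.99 to 2.24), while that of Gdf5 was 4.26 to 6.12. No share at a similar level was taken for these lists, and at the low level of Bmp2 39.5% of genes had a range over 2-fold. Replicate 3 stood over 2-fold above both others for Gdf5, Chrdl1 and Dand5, and below for Atoh8, a direction seen in 1.29% of all genes. Replicate 2 stood above for Acvrl1, and below for Msx2, a direction seen in 3.44% of all genes. None of the 42 had replicate 1 over 2-fold above both others.

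Of the 12 further ligands, 4 passed the minimum. Gdf5, a ligand of joint and tendon development, had 202, 115 and 586 normalized counts in replicates 1, 2 and 3, highest in replicate 3 like Bmp4. Gdf6, its relative, had 49.5, 22.5 and 30.8. Bmp6 had 28.7, 26.1 and 29.6, and Bmp5 had 26.9, 10.6 and 16.6, on at most 37 reads each. Bmp10, Bmp15 and Gdf7 had 0 reads in every library.

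Of the 17 further extracellular antagonists, 12 passed. Fstl1, a secreted follistatin-like glycoprotein, reached 30179, 35046 and 39201 normalized counts in replicates 1, 2 and 3. Nbl1, a secreted antagonist of the same cystine-knot family as gremlin-1, had 7164, 5549 and 10483. Chrdl1, chordin-like 1, had 214, 287 and 1099 and stood highest in replicate 3. Crim1, a membrane protein that binds BMPs, had 1362, 2870 and 2222. Noggin (Nog) had 66.0, 32.4 and 51.0, and Dand5 had 52.1, 50.7 and 109. Sost and Sostdc1 had 0 reads in every library.

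Of the 10 further receptors and coreceptors, 8 passed. Acvr1, a type I receptor, had 1304, 1399 and 1474 normalized counts in replicates 1, 2 and 3. Bmpr1b, another type I receptor, had 422, 368 and 332. Acvrl1 (ALK1), best known from endothelial cells, had 177, 741 and 193 and was highest in replicate 2. Of the 7 endothelial markers, Tek had 185 in replicate 2 against 6.95 and 2.37 in replicates 1 and 3. Egfl7 had 69.5, 53.6 and 49.8, Pecam1 had 9.55, 3.52 and 2.37, and Kdr had 4.34, 1.41 and 0 in replicates 1, 2 and 3. Cdh5 was at 0 in replicates 1 and 2 and had 1.19 in replicate 3, and Tie1 and Emcn were at 0. The part of endothelial cells in the Acvrl1 values was not tested. Endoglin (Eng), a coreceptor, had 1184, 608 and 430.3. Acvr2a, a type II receptor, had 132, 283 and 160.0.

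All 8 Smads and Smurfs passed, and 0 of the 8 had a range over 2-fold, against 21.6% of all genes. This difference over 8 genes was not tested. Smad5, a receptor-activated Smad, had 1177, 1194 and 1245 normalized counts in replicates 1, 2 and 3. Smad7, an inhibitory Smad, had 1563, 1342 and 1627. Smurf1 had 1556, 2344 and 1988 and Smurf2 had 2321, 2338 and 1637, both ubiquitin ligases that act on Smads and receptors. The median SD of log2 values was 0.30 over the 8, as over all genes, and 0.96 over Bmp2 and Bmp4, which is a description and no test.

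Of the 6 BMP targets other than the Id genes, 5 passed. Msx2, a homeobox factor, had 745, 218 and 562 normalized counts in replicates 1, 2 and 3, lowest in replicate 2 like Id1 and Id3. Atoh8 had 439, 374 and 185, with replicate 3 the lowest, and Hey1 had 38.2, 14.8 and 26.1. Runx2 had 596, 444 and 411. Of these 5 genes, 5 were highest in replicate 1, as were 31.5% of all 12204. For the last of them, Msx1, with 27.8, 23.3 and 27.3 on 32, 33 and 23 reads, the highest library is not settled at this depth. Replicate 1 stood 1.02-fold above the next library for Msx1 and 1.17-fold for Atoh8, and Hey1 rested on 44, 21 and 22 reads. The shared order was not tested.

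All 5 partners of Id proteins passed. The E proteins Tcf3, Tcf12 and Tcf4 had 1036, 1134 and 1024, then 1075, 2339 and 1397, then 590.5, 485 and 691 normalized counts in replicates 1, 2 and 3. Tcf12 was highest in replicate 2 and lowest in replicate 1. Twist2, a basic helix-loop-helix factor of dermal fibroblasts, had 232, 332 and 589.

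Likeness of pattern was measured as the largest absolute difference between log2 values centred on the mean of the 3 libraries, among 50 genes of the lists. Nearest to Id3 were Gdf6 at 0.040 and Bmp5 at 0.15, and nearest to Id1 were Bmp5 at 0.18 and Gdf6 at 0.24. Gdf6 rested on 57, 32 and 26 reads and Bmp5 on 31, 15 and 14. Their counting errors at the fewest reads were 19.6 and 26.7%, so which gene is nearest is not settled at this depth. Nearest to Id2 were Rgma at 0.070 and Bmpr2 at 0.089, and nearest to Id4 were Bmpr1a at 0.43 and Smad4 at 0.46. Counting errors at the fewest reads were 13.2% for Id2 and 15.2% for Rgma, so the nearest to Id2 is not settled either. For Id4 even the nearest gene lay 0.43 away, so none of the 50 was close. All these differences rest on 3 libraries and are a description.

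Some members share their place with antisense genes, and whether counting used strand is not stated. Exons of Bmp4 overlap Gm15217, those of Bmpr1a overlap Gm17110 and those of Id4 overlap A330033J07Rik and Gm49291 on the other strand. Gm15217, Gm17110 and A330033J07Rik had 0 normalized counts in every library.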

How the data were processed

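RNA-seq was analysed from 3 libraries of 1 condition, wounded fibroblasts with MG and PD0325901 for 5 h. A further 3 columns of per-sample values matched no sample and were not used. The authors aligned uniquely mapping single-end reads of stranded mRNA libraries to mm10 with TopHat2 2.0.13, counted reads per gene with HTSeq 0.5.3p3 and normalized with DESeq. The annotation and the strand setting are not given in the sources used here. The deposited signal is normalized counts, that is, counts divided by 1 size factor per library by the authors (recovered here as 1.15, 1.42 and 0.844). All values in each library (100%) divided into whole reads within 0.01, so reads were recovered.

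Means, SDs and ranges were computed with Python 3.11.15 and numpy 2.4.6, log2 values with a pseudocount of 1, intervals with scipy 1.17.1 (exact Clopper-Pearson, 95%, turned into a ratio), and dispersion and TMM factors with edgeR 4.0.16 on genes with at least 30 reads in all. Exonic lengths came from GENCODE M21 on GRCm38. Steps were tested on simulated data with changes larger than 2-fold and less spread between libraries than here. That test does not bear on calls near the 2-fold limit. No count test was run, as there is 1 group. All 9 members are named, and of each pathway list the 3 highest by mean, those over 2-fold, and those with 0 counts, except 1 gene that is not reported here. The members and lists were chosen with earlier results of these data known. Nothing says whether the 3 replicates came from separate animals or cultures, so their spread may be technical. Other scalings, pseudocounts, minimums, fold limits, lengths and each replicate left out were tried as alternatives.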

Additional observations from a re-analysis of the deposited data

How the results depend on the processing

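No paired analysis was possible because the 3 libraries form a single group. The count of members over the range limit was 9 at 1.5-fold (48.5% of all genes), 1 at 3-fold (Bmp4; 7.70%), 3 with a minimum of 100 (13.4%), and 3 to 3 with a replicate left out, and that of pathway genes 25 at 1.5-fold, 4 at 3-fold and 6 to 9 with a replicate left out. These follow from the limits and from fewer libraries. At 1.5-fold, 7 members had 1 library apart, as had 31.4% of all genes. Of the 9 ranks per kb, 7 were kept with the longest transcript (Id2 above Id4), 5 without division by length and 7 to 7 with a replicate left out. The Id3 share was 77.2% without division by length and 79.7% with the longest transcript, and the Bmp2 share 13.6% without division. The median SD over all genes was 0.46 with all genes that had reads and 0.20 to 0.30 with a replicate left out. Of 45 recomputed member means, 0 moved by over 1 SD, which for a left-out replicate says nothing about stability: the Bmp4 mean was 314 without replicate 3, and that of Id4 113 without replicate 2. Depth limited Bmp2 and Id2, with as few as 67 and 57 reads.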
